A study of Mus musculus with 6 samples.

Results

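The genes described here are the 3 Nr4a genes, the 3 Egr genes Egr1, Egr2 and Egr3, and the green fluorescent protein (GFP) reporter of the Nr4a1 locus, chosen by name from a table of 11162 listed genes. All 7 members were found, 6 of them with an Entrez ID and the reporter without one. They were compared between naive CD8 T cells of mouse spleen sorted as Nur77-GFPhi (GFP-hi) or Nur77-GFPlo (GFP-lo), with 3 RNA sequencing libraries per population. All cells came from mice of 1 genotype, Nur77-GFP (Tg(Nr4a1-EGFP)GY139Gsat), and every sort label also names OT-I, a transgenic T-cell receptor, together with CD8+, CD44lo, CD62Lhi and Qa2hi. The transgene places the reporter under control of Nr4a1 sequences, so reporter brightness stands in for Nr4a1 activity and is not the Nr4a1 protein itself. The ages of the mice and the number of mice per library are not in the labels, so p-values measure the spread between these libraries, which may be technical.

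Nr4a1 (Nur77), Nr4a2 (Nurr1) and Nr4a3 (Nor1) encode orphan nuclear receptors, transcription factors whose activity is set largely by how much protein is made. Egr1, Egr2 and Egr3 encode zinc-finger transcription factors. Both families are immediate early genes. Their transcription starts within minutes of T-cell receptor signalling from pre-existing factors such as serum response factor, CREB and MEF2 and then falls again, and Egr2, Egr3 and the Nr4a factors are known for limiting T-cell responses. The fluorescent protein of the reporter lasts longer than such messages do.

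The start-site regions of 4 members were found in the RefSeq promoter table (build GRCm38.p6, the assembly also called mm10), each with 250 bases before and 50 after the annotated start. They are shown because these genes are known to be switched on through elements of the kinds marked here. Capitals mark every TGACG or its reverse complement CGTCA, the 5-base core of the CREB response element, and in Egr2 also the CArG box, the binding motif of serum response factor. The Nr4a1 window lies at chr15:101266596-101266895 on the plus strand, inside the Nr4a1 gene at chr15:101253902-101274795. The Nr4a2 window lies at chr2:57123954-57124253 on the minus strand, the Nr4a3 window at chr4:48045055-48045354 on the plus strand, and the Egr2 window at chr10:67537619-67537918 on the plus strand. Egr2 has 5 listed windows, and the window printed is the first of 3 that overlap and share the marked matches. The other 2 hold no core match, and 1 of them holds a CArG box.
Nr4a1: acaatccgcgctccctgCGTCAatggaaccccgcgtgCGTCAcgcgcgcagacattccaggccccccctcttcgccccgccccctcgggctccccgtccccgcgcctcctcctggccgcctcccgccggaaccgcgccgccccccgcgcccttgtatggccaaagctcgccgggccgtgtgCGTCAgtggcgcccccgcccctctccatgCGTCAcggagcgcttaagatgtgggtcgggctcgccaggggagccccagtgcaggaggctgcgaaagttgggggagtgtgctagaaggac
Nr4a2: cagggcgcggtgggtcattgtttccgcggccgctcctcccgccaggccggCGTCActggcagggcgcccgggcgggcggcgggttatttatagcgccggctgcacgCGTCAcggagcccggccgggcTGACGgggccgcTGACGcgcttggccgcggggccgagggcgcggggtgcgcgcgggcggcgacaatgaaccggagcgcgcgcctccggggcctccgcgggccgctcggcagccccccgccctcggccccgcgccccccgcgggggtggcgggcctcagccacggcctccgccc
Nr4a3: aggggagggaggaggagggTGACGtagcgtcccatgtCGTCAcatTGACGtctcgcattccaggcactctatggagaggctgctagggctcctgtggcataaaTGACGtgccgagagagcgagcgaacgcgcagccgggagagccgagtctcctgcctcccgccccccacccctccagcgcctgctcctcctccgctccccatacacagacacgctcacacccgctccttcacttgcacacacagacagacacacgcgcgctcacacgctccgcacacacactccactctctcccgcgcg
Egr2: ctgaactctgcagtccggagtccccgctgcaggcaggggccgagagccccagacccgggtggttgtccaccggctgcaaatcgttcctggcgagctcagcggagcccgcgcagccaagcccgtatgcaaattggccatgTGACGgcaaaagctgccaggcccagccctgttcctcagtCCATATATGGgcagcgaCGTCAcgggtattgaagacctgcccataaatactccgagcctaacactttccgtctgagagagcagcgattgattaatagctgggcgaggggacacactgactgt
Each of the 3 Nr4a windows held 4 matches to the 5-base core. At least 1 match was present in 20.8% of all 32851 listed windows of this length and at least 4 in 0.231%. These shares are not matched for base content. The Nr4a1, Nr4a2 and Nr4a3 windows held 72.3%, 81.7% and 64.7% G or C, and the core itself contains CG. The matches in Nr4a1 began at positions -233, -213, -69 and -40 from the start site, in Nr4a2 at -200, -144, -123 and -111, and in Nr4a3 at -231, -213, -205 and -147. The Egr2 window held 2 core matches, at -111 and -55, where 5.01% of all windows hold at least 2, and a CArG box at -72, a motif found in 1.63% of all windows. A palindromic element TGACGTCA would count as 2 overlapping cores. It was in none of the 4 windows and in 1.79% of all. The EGR site GCGTGGGCG, the AP-1 site TGACTCA and the motif AAAGGTCA were sought too and were in none of the 4 windows. A match is a run of letters and was not measured as a bound site here.

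Values are RPKM, reads scaled to the length of the gene and to the size of the library, as deposited, so levels of different genes can be set side by side per unit length. The depth recovered from the values was 26170000 to 35940000 reads per library, so 1 kilobase of message at an RPKM of 1 rested on 26.17 to 35.94 reads. The rarest member, Nr4a3, thus rested on 10.2 to 26.7 reads per kilobase, and counting error alone is sizeable for it. Of 9 CD8 T-cell marker genes 8 were listed, Cd8a and Cd8b1 among them, with a summed level of 2240 to 2443 RPKM in GFP-hi and of 2335 to 2531 RPKM in GFP-lo libraries. In the libraries numbered 2 of both populations, heat-shock genes such as Hspa1a and Hspa1b were much higher than in the other 4. Library numbers were given in record order. Libraries with the same number had like levels of Nr4a1, while Egr1 and the heat-shock genes set only the libraries numbered 2 apart. No label says whether libraries with the same number share mice, a day or a sort. Every interval here is thus from a fit that does not pair them.

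In both populations the messages held the same order of abundance. GFP was highest, then Nr4a1, Egr1, Nr4a2, Egr2, Egr3 and Nr4a3, in 5 of 6 libraries. In GFP-hi library 2 Egr2 stood above Nr4a2. The ranges over libraries did not overlap between GFP and Nr4a1, between Egr1 and Nr4a2, between Egr2 and Egr3 or between Egr3 and Nr4a3. Nr4a1 and Egr1 overlapped across libraries, although Nr4a1 was the higher in each of the 6, and Nr4a2 and Egr2 overlapped too. The mean level of Nr4a1 lay above that of 95.9% of listed genes, that of Egr1 above 90.1% and that of Nr4a3 above 10.5%. The length used for the GFP entry is not given, so its place in the order rests on an unknown length.

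Nr4a1 had 56.6, 90.9 and 37.0 RPKM in GFP-hi libraries 1 to 3 and 63.1, 84.9 and 33.8 RPKM in GFP-lo libraries 1 to 3. In both populations library 2 was highest and library 3 lowest, and the groups overlapped almost fully. The log2 fold change, GFP-hi over GFP-lo on the log2(RPKM + 1) scale used throughout, was 0.02 with a 95% interval from -0.85 to 0.89 (limma adjusted p = 0.98). Because of the spread within groups, the interval runs from a 0.556-fold to a 1.86-fold difference, and differences in Nr4a1 within these bounds were not excluded. It was -0.30 without GFP-hi library 2, -0.34 without GFP-lo library 3 and 0.34 without GFP-hi library 3. In bulk libraries, fewer cells with a message and less of it per cell cannot be told apart.

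Nr4a2, the relative known for its role in dopamine neurons and also induced in activated T cells, had 4.83, 4.93 and 4.08 RPKM in GFP-hi and 4.34, 7.02 and 4.62 RPKM in GFP-lo libraries. GFP-lo library 2 stood above the others, and the remaining 5 libraries lay close together. The log2 fold change was -0.15, with an interval from -0.50 to 0.19 (limma adjusted p = 0.63), and it was 0.032 without GFP-lo library 2. Nr4a3, which is induced by antigen receptor signals like Nr4a1, had 0.622, 0.585 and 0.345 RPKM in GFP-hi and 0.742, 0.495 and 0.412 RPKM in GFP-lo libraries. The groups overlapped, with library 1 highest and library 3 lowest in each. Its mean over the 6 libraries lay under the RPKM of 1 asked of tested genes, so it was compared alone. The difference was -0.030 (two-sided exact permutation test, p = 0.9, where 0.1 is the smallest p that 3 against 3 libraries allow). It was 0.055 without GFP-hi library 3 and 0.058 without GFP-lo library 1. The interval from a fit to all listed genes ran from -0.30 to 0.24.

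The reporter message had 214, 262 and 215 RPKM in GFP-hi and 216, 215 and 191 RPKM in GFP-lo libraries. GFP-hi library 2 was the highest and GFP-lo library 3 the lowest, while the other 4 lay between 214 and 216 RPKM. The log2 fold change of GFP was 0.15, with an interval from -0.06 to 0.36 (limma adjusted p = 0.42). The interval spans a 0.958-fold to a 1.28-fold difference, much narrower than that of Nr4a1. The cells had been separated by the brightness of the protein. With 1 library left out the upper end of the interval reached up to 0.44 on the log2 scale. The fold change was 0.054 without GFP-hi library 2 and 0.092 without GFP-lo library 3, and it was positive in all 19 alternative analyses without passing the threshold in any.

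Egr1, a growth-factor and antigen-receptor responsive gene, had 18.2, 50.5 and 23.5 RPKM in GFP-hi and 23.2, 60.8 and 29.7 RPKM in GFP-lo libraries. Library 2 of each population stood far above the other libraries of both. The log2 fold change was -0.31, with an interval from -1.27 to 0.66 (limma adjusted p = 0.75). It was 0.088 without GFP-lo library 2, -0.011 without GFP-hi library 1 and -0.72 without GFP-hi library 2. Across the 19 alternatives it was negative in 18, and adjusted p values ran from 0.12 to 0.99.

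Egr2 and Egr3, which cooperate in restraining T cells, were much less abundant. Egr2 had 3.17, 6.18 and 2.70 RPKM in GFP-hi and 3.18, 5.42 and 2.48 RPKM in GFP-lo libraries. Library 2 was again highest in both groups, and the other 4 libraries lay between 2.48 and 3.18 RPKM. The log2 fold change was 0.08, with an interval from -0.57 to 0.74 (limma adjusted p = 0.90), and its sign turned without GFP-hi library 2 (-0.21) or GFP-lo library 3 (-0.11). Egr3 had 0.906, 1.35 and 1.07 RPKM in GFP-hi and 0.900, 1.19 and 1.01 RPKM in GFP-lo libraries. Its groups overlapped as well, with a log2 fold change of 0.05 and an interval from -0.18 to 0.28 (limma adjusted p = 0.84), and -0.032 without GFP-hi library 2. With a mean of 1.07 RPKM it passed the filter narrowly.

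**Figure D1:**
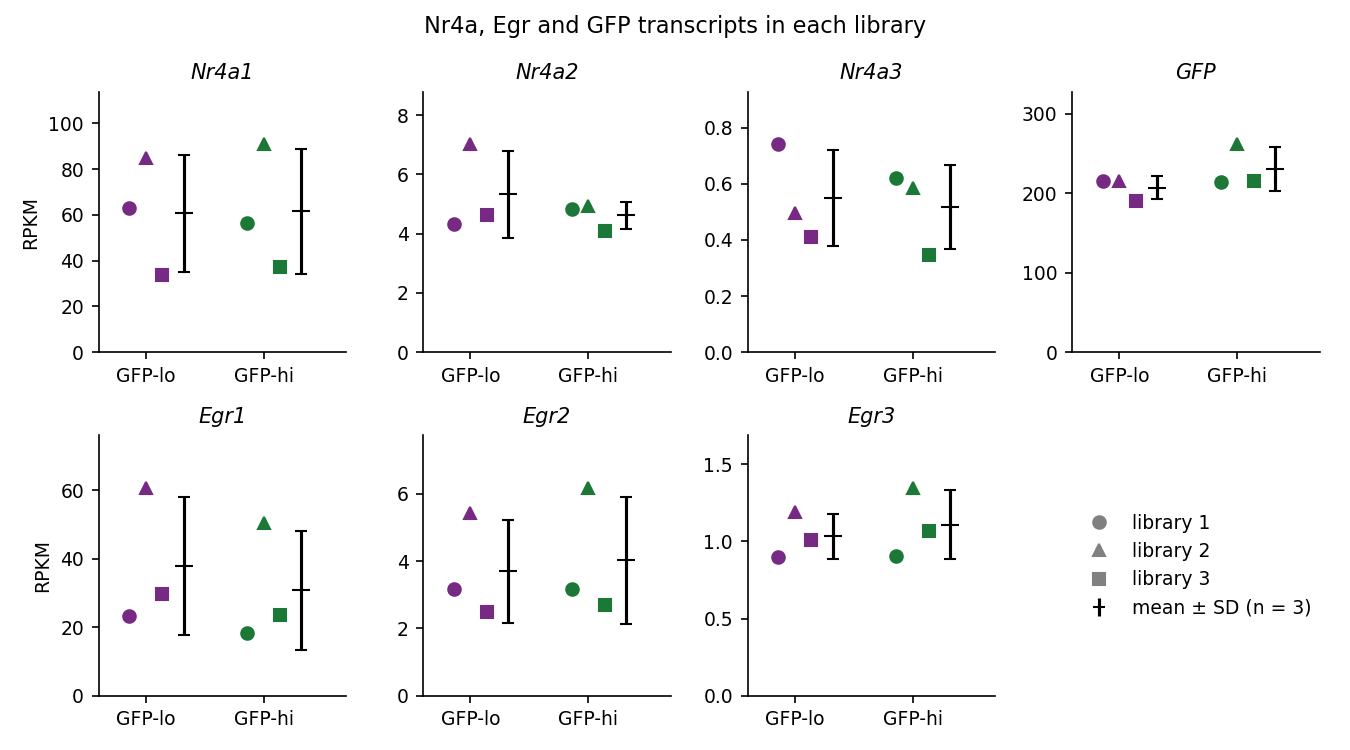
RPKM of each member in each library (points, with the symbol giving the library number) for GFP-lo and GFP-hi cells, with the mean and SD of 3 libraries in black. The populations overlap in each panel, and library 2 is the highest of its group for Nr4a1, Nr4a2, Egr1, Egr2 and Egr3 in both populations.

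Thus 0 of 6 members tested passed an adjusted p under 0.05 in limma, and 0 of 6 had an unadjusted p under 0.05. Of 9351 tested genes, 3.95% passed the adjusted threshold and 20.2% had an unadjusted p under 0.05. Groups did not overlap for 0 of 7 members, against 26.9% of tested genes, 17.1% higher and 9.84% lower in GFP-hi. A missing call does not show equal levels, and each interval gives the differences that the fit did not exclude. GFP and Egr3 had the narrowest intervals and Egr1 the widest. At about 1 RPKM the width for Egr3 depends on the pseudocount, and with 0.1 in place of 1 its interval ran from -0.34 to 0.50.

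**Figure D2:**
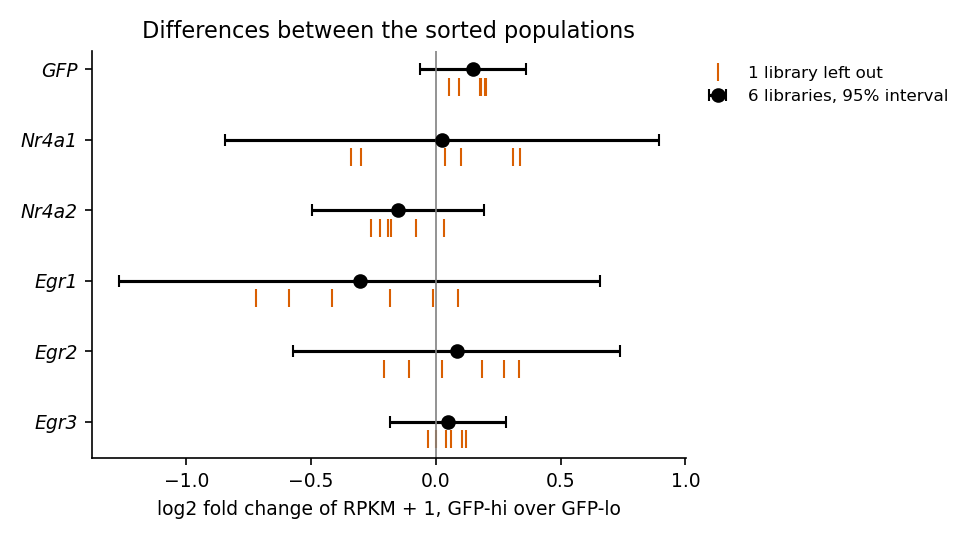
Log2 fold change of RPKM + 1, GFP-hi over GFP-lo, for the 6 tested members (black points with 95% intervals from limma) and the values with 1 library left out (orange ticks). Each interval includes 0, and only for GFP do all ticks lie on 1 side of 0.

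The members were unlike in how far their levels varied between libraries. The highest over the lowest library was 3.33-fold for Egr1, 2.69-fold for Nr4a1, 2.50-fold for Egr2, 2.15-fold for Nr4a3, 1.72-fold for Nr4a2, 1.50-fold for Egr3 and 1.37-fold for GFP. The SD within groups of log2(RPKM + 1) was 0.722 for Egr1, larger than that of 99.6% of tested genes, 0.651 for Nr4a1 (also 99.6%), and 0.483 for Egr2, larger than that of 99.2%. It was 0.243 for Nr4a2 (95.9%), 0.137 for GFP (79.9%) and 0.130 for Egr3 (77.0%), against a median of 0.0897 over tested genes. The reporter message thus varied far less from library to library than Nr4a1 itself.

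Nr4a1, Nr4a2, Egr1, Egr2 and Egr3 all had their 2 highest values in GFP-hi library 2 and GFP-lo library 2. Of tested genes, 9.35% had that pair of highest libraries. The same pair was the highest for all 14 heat-shock genes of a list of chaperones and co-chaperones, many induced by heat or handling. Their summed level was 4627 RPKM in GFP-hi library 2 and 4998 RPKM in GFP-lo library 2, against 1396 and 1411 RPKM in the other GFP-hi and 1610 and 1608 RPKM in the other GFP-lo libraries. Hspa1a, an inducible chaperone gene, reached 1100 and 1234 RPKM in the libraries numbered 2 and 152 to 235 RPKM elsewhere. Hspa1b reached 1904 and 2133 RPKM there and 344 to 503 RPKM elsewhere. Genes of the list differed in this, and Hspa5 had 128 and 122 RPKM there and 109 to 117 RPKM elsewhere. Between populations, 0 of the 14 heat-shock genes had an adjusted p under 0.05 in limma. Only Bag3 had an unadjusted p under 0.05, against 20.2% of all tested genes. These counts do not show equal levels, since the libraries numbered 2 widen the intervals. That of Hspa1a ran from -2.44 to 1.63 on the log2 scale. The part of handling in the levels of Nr4a and Egr genes was not tested.

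**Figure D3:**
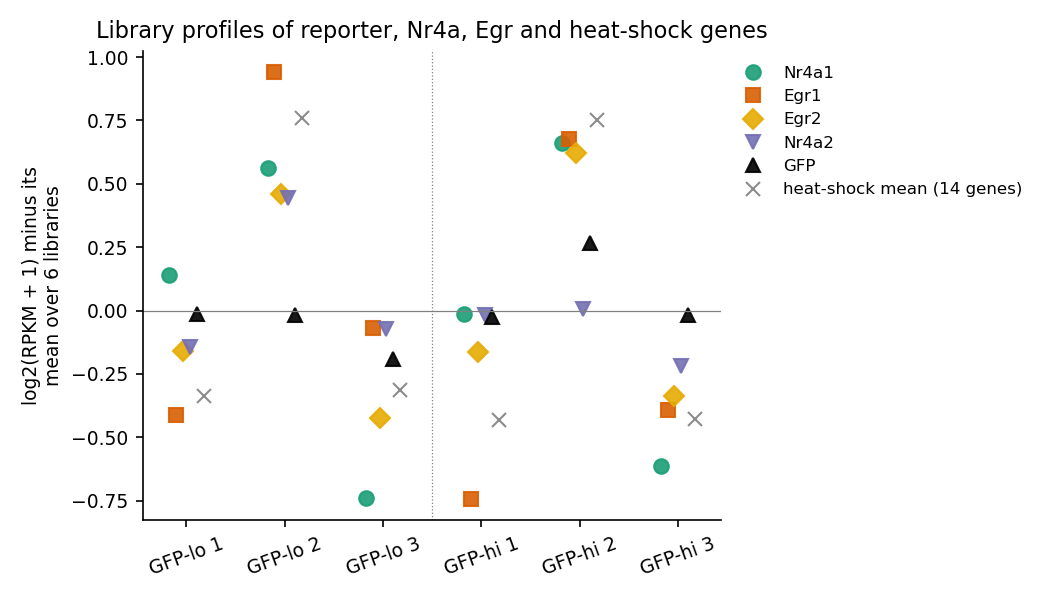
Log2(RPKM + 1) in each library minus the mean of the 6 libraries, for GFP, 4 members and the mean of 14 heat-shock genes, with GFP-lo libraries on the left and GFP-hi libraries on the right. Egr1, Egr2 and the heat-shock mean are highest in the libraries numbered 2, Nr4a1 is lowest in the libraries numbered 3, and GFP stays closer to 0.

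With both libraries numbered 2 left out, the highest over the lowest library was 2.15-fold for Nr4a3, 1.87-fold for Nr4a1 and 1.63-fold for Egr1. It was 1.29-fold for Egr2, 1.19-fold for Nr4a2 and for Egr3, and 1.13-fold for GFP. Nr4a1 still differed between the libraries numbered 1 and 3 of both populations. In these 4 libraries the log2 fold change was -0.01 for Nr4a1 (interval -0.80 to 0.78, limma adjusted p = 0.99), -0.33 for Egr1 (-0.71 to 0.05, adjusted p = 0.38) and 0.08 for GFP (-0.10 to 0.27, adjusted p = 0.65). Intervals were narrower in a fit to the 6 libraries that took the mean heat-shock level as covariate. That level was measured in the same libraries and may itself differ between populations, so these values are conditional on it. Egr1 then had a log2 fold change of -0.23 (interval -0.49 to 0.03, limma adjusted p = 0.25), Egr2 0.13 (-0.08 to 0.35, adjusted p = 0.42) and GFP 0.16 (0.01 to 0.31, adjusted p = 0.18). Nr4a1 kept a wide interval, from -0.49 to 0.65 around 0.08 (adjusted p = 0.87). With the level of Nr4a1 as covariate, GFP had a log2 fold change of 0.15 (interval -0.003 to 0.29, limma adjusted p = 0.24). No member passed the threshold in these fits.

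Ratios within a library describe the same pattern. The reporter message was 3.78, 2.88 and 5.82 times Nr4a1 in GFP-hi libraries 1 to 3 and 3.42, 2.53 and 5.64 times Nr4a1 in GFP-lo libraries. Means were 4.16 ± 1.51 and 3.86 ± 1.60 (SD, n = 3 each), and the groups overlapped. In both populations the ratio was lowest in library 2 and highest in library 3. Nr4a1 was 3.10, 1.80 and 1.57 times Egr1 in GFP-hi and 2.72, 1.40 and 1.14 times Egr1 in GFP-lo libraries. The 2 genes thus did not keep a fixed ratio across libraries. Within the Nr4a family, Nr4a1 made up 91.6% ± 2.50 of summed RPKM in GFP-hi and 90.5% ± 2.99 in GFP-lo cells (SD, n = 3 each). Within the Egr genes, Egr1 made up 85.0% ± 2.85 and 88.2% ± 2.79 (SD, n = 3 each). These ratios were not tested.

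**Figure D4:**
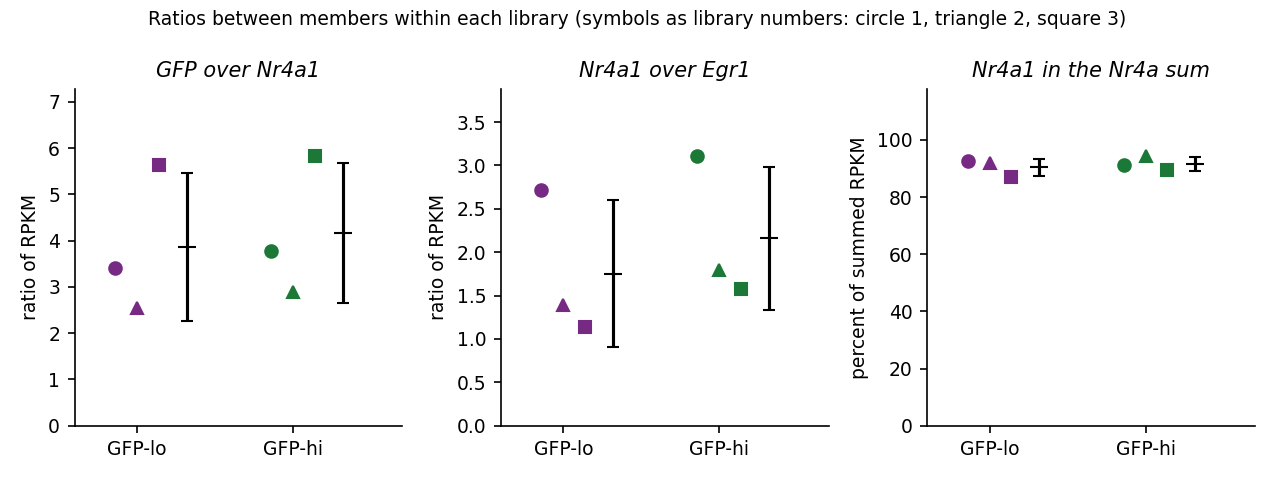
Ratio of RPKM of GFP to Nr4a1, ratio of Nr4a1 to Egr1, and percent of summed Nr4a RPKM held by Nr4a1, in each library, with the mean and SD of 3 libraries in black. GFP over Nr4a1 runs from 2.53 to 5.82 with the populations interleaved, while the share of Nr4a1 stays between 87.1% and 94.3%.

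Genes with the nearest library profile were sought by the mean absolute difference between log2(RPKM + 1) profiles over the 6 libraries, each centred on its own mean. The 5 nearest to Nr4a1 outside the members were Dnajb4 (0.167), Gem (0.182), Ccdc117 (0.204), Rhob (0.210) and Mir24-2 (0.217), against a median of 0.464 over tested genes. Dnajb4 encodes a co-chaperone, and Gem and Rhob encode small GTPases. Among the members themselves, Egr2 lay at 0.197 from Nr4a1 and Egr1 at 0.428. The 5 nearest to Egr1 were Rasd1 (0.133), Hsph1 (0.193), Gadd45b (0.208), Fosb (0.223) and Hsp90aa1 (0.224), against a median of 0.542. Hsph1 and Hsp90aa1 encode chaperones, Fosb a subunit of the AP-1 factor and Gadd45b a stress-response protein. Nearest to GFP were Txndc15 (0.0187), Cars2 (0.0198), Zfp511 (0.0209), Mus81 (0.0218) and Pih1d1 (0.0245), with a median of 0.121. Nr4a1 lay at 0.382 from GFP, above that median but below the median distance of 0.464 from Nr4a1. A gene whose level hardly varies lies near to every other such gene, so distances to GFP are small in general. These distances are descriptions over 6 libraries.

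The NAB proteins are corepressors that bind Egr factors, and Nab2 is itself a known Egr target. Nab2 had 15.3, 19.5 and 14.9 RPKM in GFP-hi and 11.9, 14.1 and 9.01 RPKM in GFP-lo libraries. The GFP-hi libraries all lay above the GFP-lo libraries, by 0.48 on the log2 scale (standard error 0.155), but the difference did not pass the threshold (limma adjusted p = 0.14). Nab1 averaged 32.2 ± 0.908 RPKM (SD, n = 3) with bright and 31.6 ± 1.10 RPKM (SD, n = 3) with dim reporter, and its log2 difference was 0.03 (limma adjusted p = 0.82).

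Other immediate early genes were described from a list of 28, of which 25 were tested. None passed an adjusted p under 0.05 in limma, and 4, Junb, Dusp2, Dusp4 and Klf4, had an unadjusted p under 0.05, a share below the 20.2% of all tested genes. The median log2 fold change was -0.18, and 76% of the list lay below 0, against a median of 0.02 and 44.5% for all tested genes. The most abundant were Junb, Fos, Klf2 and Jun. Junb, an AP-1 subunit, had 542, 750 and 578 RPKM in GFP-hi and 824, 944 and 808 RPKM in GFP-lo libraries, so the groups did not overlap, yet the difference of -0.47 on the log2 scale did not pass (limma adjusted p = 0.080). Fos had a log2 fold change of -0.18 (adjusted p = 0.62), Jun of -0.40 (adjusted p = 0.38) and Klf2, a regulator of naive T-cell homing, of -0.11 (adjusted p = 0.55). Dusp2, a phosphatase of MAP kinases, lay on the other side, with 170, 188 and 157 RPKM in GFP-hi against 155, 155 and 135 RPKM in GFP-lo libraries, without overlap (log2 fold change 0.21, limma adjusted p = 0.22). Dusp2, Dusp4 and Klf4 lie outside the rule for named genes and were picked once their values were known. The same holds for Hspa5 and Bag3 above and for Nfatc2 and Pdcd1 below.

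Factors that act upstream of the Nr4a and Egr genes are serum response factor with its partners, CREB, MEF2 and NFAT proteins and their cofactors. Of 16 tested, 1 was higher and none lower by limma adjusted p, against 2.46% and 1.49% of all tested genes. Only 2, Elk3 and Nfatc2, had an unadjusted p under 0.05, against 20.2%. The groups did not overlap for 4 of 16, with 1 of these higher in GFP-hi and 3 lower. Among all tested genes 26.9% did not overlap, 17.1% higher and 9.84% lower in GFP-hi. Over the 16 genes the median log2 fold change was -0.02. The gene that rose was Elk3, a partner of serum response factor, with 10.1, 9.87 and 9.10 RPKM in GFP-hi and 7.80, 7.61 and 7.34 RPKM in GFP-lo libraries. The groups were separate, and Elk3 rose by 0.32 on the log2 scale (limma adjusted p = 0.029, standard error 0.060). It no longer passed when any 1 of the 6 libraries was left out (adjusted p 0.053 to 0.11), nor with trimmed mean of M values scaling (0.057). The 4 most abundant, Nfatc3 (0.01), Nfatc1 (0.03), Hdac7 (-0.06) and Mef2d (-0.07), had log2 fold changes near 0.

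Genes reported as targets of the members' protein products were also described. Calls among them do not measure the activity of those proteins, which was not tested. Of 13 tested genes reported as targets of EGR2 and EGR3, 3 were higher and 1 was lower in GFP-hi by limma adjusted p, against 2.46% higher and 1.49% lower among all tested genes. The list was chosen with earlier results of these data known, so its count is a description. Tnfrsf9, the gene of the costimulatory receptor 4-1BB, rose from 1.44, 1.04 and 1.34 RPKM in GFP-lo to 7.48, 6.45 and 7.37 RPKM in GFP-hi libraries. Its log2 fold change was 1.83 (standard error 0.089, limma adjusted p = 9.7e-05). Cd200, which encodes an inhibitory surface ligand, rose from 0.409, 0.602 and 0.636 RPKM in GFP-lo to 2.33, 2.31 and 2.42 RPKM in GFP-hi libraries (log2 fold change 1.12, adjusted p = 0.00079). Bcl6, a transcriptional repressor, rose from 1.75, 1.39 and 1.38 RPKM to 2.34, 2.29 and 2.79 RPKM (log2 fold change 0.47, standard error 0.091, limma adjusted p = 0.031). Socs3, a suppressor of cytokine signalling, fell from 63.4, 76.9 and 68.2 RPKM in GFP-lo to 27.3, 45.6 and 36.6 RPKM in GFP-hi libraries (log2 fold change -0.93, limma adjusted p = 0.021). The other abundant genes of the list did not pass. Id3 had 73.5, 136 and 80.0 RPKM in GFP-hi and 55.2, 88.2 and 57.7 RPKM in GFP-lo libraries, with overlap and its highest values in the libraries numbered 2 (log2 fold change 0.50, limma adjusted p = 0.32). The diacylglycerol kinase genes Dgka (-0.11, adjusted p = 0.30) and Dgkz (0.10, adjusted p = 0.53) did not pass either. The median of the 13 genes was 0.09.

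Of 12 tested partners and reported targets of NR4A proteins, 2 were higher and none lower by limma adjusted p, against 2.46% and 1.49% of all tested genes. An unadjusted p under 0.05 was found for 4, Ikzf2, Tox, Cd5 and Pdcd1, against 20.2% of all. The median log2 fold change was 0.14. Ikzf2, the gene of the Ikaros-family factor Helios, rose from 1.05, 1.02 and 1.34 RPKM in GFP-lo to 3.24, 3.95 and 2.94 RPKM in GFP-hi libraries (log2 fold change 1.03, standard error 0.105, limma adjusted p = 0.0025). Tox, a nuclear factor linked to T-cell exhaustion, rose from 10.3, 9.50 and 9.93 RPKM to 12.6, 12.1 and 12.4 RPKM (log2 fold change 0.29, limma adjusted p = 0.026). Cd5, an inhibitory receptor that scales with T-cell receptor signalling, had 86.0, 95.6 and 90.2 RPKM in GFP-hi against 79.4, 76.4 and 75.5 RPKM in GFP-lo libraries. The groups of Cd5 were separate, yet the difference did not pass (log2 fold change 0.23, limma adjusted p = 0.071). Ccr7, Batf and Myc, the other abundant genes of the list, had log2 fold changes of -0.15, -0.13 and 0.06.

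Of the 7 called genes named in these lists, Tnfrsf9, Cd200 and Ikzf2 kept their calls in each of the 6 fits without 1 library. Tox and Bcl6 each lost theirs without GFP-hi library 1, GFP-hi library 3, GFP-lo library 2 or GFP-lo library 3 (limma adjusted p up to 0.11 and 0.12). With both libraries numbered 2 left out, Tox (adjusted p = 0.11), Bcl6 (0.15) and Elk3 (0.15) did not pass, while Tnfrsf9, Cd200, Ikzf2 and Socs3 did. Socs3 lost its call without GFP-hi library 3 or any 1 of the GFP-lo libraries (up to 0.085). None of the 7 had its direction change in any alternative. Some markers of other cell types moved with the sort. B-cell markers (3 of 7 listed, with Cd79a and Pax5 not listed) summed to 12.7 to 14.2 RPKM in GFP-hi libraries. In GFP-lo libraries they summed to 11.05 to 11.45 RPKM, without overlap. Only 1 of the 3 averaged an RPKM of 1 or more, so the sum is mostly that of 1 gene. Among all tested genes, 26.9% had groups that did not overlap. Myeloid markers (1 of 8 listed) summed to 0.16 to 0.366 and 0.238 to 0.431 RPKM. Natural killer cell markers (2 of 5 listed, Nkg7 and Eomes, which CD8 T cells also express) summed to 306 to 321 and 281 to 290 RPKM, also without overlap. Of markers of CD4 and regulatory T cells only Cd40lg was listed, and Cd4, Foxp3, Il2ra and Zbtb7b were not. The content of such cells cannot be told from Cd40lg alone. Cd40lg was lower in GFP-hi, with 14.2 to 22.7 RPKM against 35.4 to 46.8 RPKM (log2 fold change -1.13, limma adjusted p = 0.011). Thymocyte markers (3 of 5 listed) summed to 19.5 to 21.8 and 19.6 to 22.8 RPKM, and erythroid and platelet markers (1 of 6 listed) to 0.047 to 1.94 and 0.393 to 1.48 RPKM. The part of other cells in these results was not tested.

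**Figure D5:**
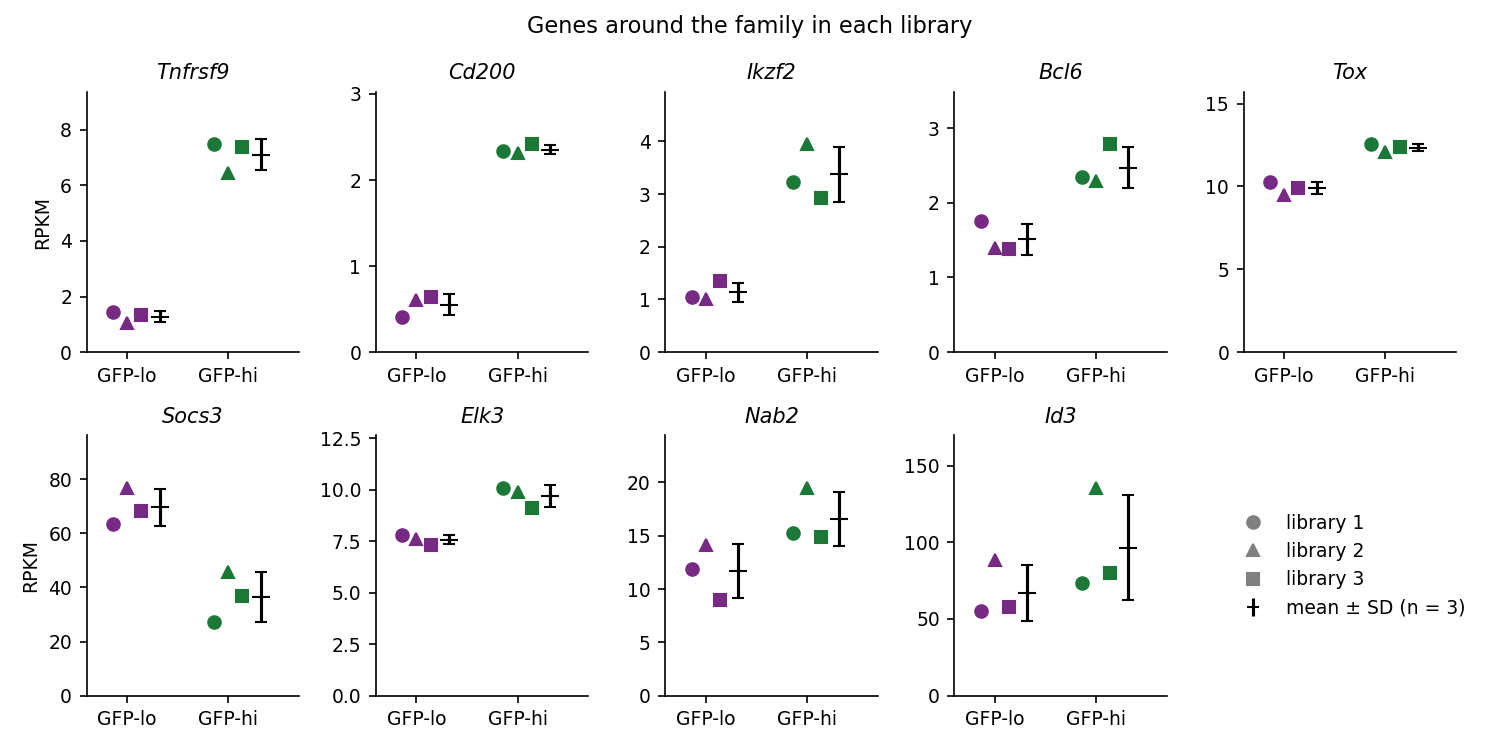
RPKM in each library (points, symbol by library number) of the 7 called genes from the lists and of Nab2 and Id3, for GFP-lo and GFP-hi cells, with the mean and SD of 3 libraries in black. Tnfrsf9, Cd200, Ikzf2, Bcl6, Tox and Elk3 are higher and Socs3 is lower in all 3 GFP-hi libraries, and Nab2 is separate without passing the threshold.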

How the data were processed

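Libraries were made from column-purified RNA of sorted, lysed cells with the SMART-seq v4 and Nextera XT kits, per the labels' protocols. The submitters' processing notes name STAR and mm10. The read counter, the annotation and the rule for listing genes are not given in the sources used here. Values deposited by the authors were RPKM, per the file headers, 1 column per library.

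Of 11162 genes, the 9351 whose RPKM averaged 1 or more were tested with limma 3.58.1 in R 4.3.3 on log2(RPKM + 1), with moderated variances that follow a trend on level. Tests were two-sided and Benjamini-Hochberg adjusted over all tested genes. The pseudocount understates changes of low genes. Of the members 6 passed this filter and Nr4a3 did not. For 15 genes with a date or no symbol, names were looked up by Entrez ID in RefSeq. Groups came from the phenotype labels.

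Depth was recovered from low RPKM values of 800 genes with a single GENCODE M21 transcript, as the library size at which RPKM times length came nearest to whole reads. Of 191 to 220 low values per library, 85.9% to 88.6% came within 0.1 of a whole number (chance gives 20%). Reads include PCR copies.

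In 5 simulations of 9351 genes, 95.9% of 200 genes changed by 1 on the log2 scale were recovered, 3.90% of calls were false, and 0 calls were made when nothing changed. Noise was drawn independently for each gene and library, and the changed genes were picked at random. Recovery is thus an average over tested genes. It does not apply to genes with spreads as large as those of Nr4a1, Egr1 and Egr2. Levels shared by libraries were not simulated.

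Members and lists were chosen with earlier results of these data known. Named were all members, up to 6 called and the 4 most abundant genes of each list, and the 5 nearest profiles to Nr4a1, Egr1 and GFP. Alternatives changed the pseudocount, filter, scaling, variance model, covariates and libraries. Python 3.11.15 with matplotlib 3.10.9 made the plots.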

Additional observations from a re-analysis of the deposited data

How the results depend on the processing

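No paired fit was run, since library numbers follow record order and no label ties libraries of the 2 populations together. Over 19 alternatives, or 18 for Nr4a1, which cannot be its own covariate, no member passed an adjusted p under 0.05 in limma where it was tested, and GFP kept a positive log2 fold change. Nr4a1 turned negative with quantile normalization (-0.0042), trimmed mean of M values (-0.0048), array quality weights (-0.42) and both libraries numbered 2 left out (-0.014). Array quality weights also turned Egr2 (-0.28) and Egr3 (-0.018), and moved Egr1 to -0.76 (interval -1.44 to -0.085, limma unadjusted p = 0.032, adjusted 0.12) and Nr4a2 to -0.33 (-0.63 to -0.023, unadjusted p = 0.038, adjusted 0.14). They gave GFP-hi library 2 a weight of 0.295 and GFP-hi library 3 a weight of 4.25. With 1 library left out, where an arm of 2 remains, log2 fold changes ran from -0.34 to 0.34 for Nr4a1, -0.26 to 0.032 for Nr4a2, -0.094 to 0.058 for Nr4a3, -0.72 to 0.088 for Egr1, -0.21 to 0.33 for Egr2, -0.032 to 0.12 for Egr3 and 0.054 to 0.20 for GFP. Nr4a3, under the filter, had a limma p only with no filter (adjusted p = 0.96).

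Genes higher and lower in GFP-hi numbered 230 and 139. They numbered 119 and 83 with a filter at a mean RPKM of 5, which tested fewer genes, 783 and 499 with array quality weights and 403 and 231 with the heat-shock covariate. They numbered 47 and 43 without both libraries numbered 2, which left fewer samples, and 73 to 173 and 60 to 125 without 1 library. Trimmed mean of M values gave 169 and 168, an even split. Of the 5 genes nearest to Nr4a1, 2 remained when likeness was the largest difference and 3 with a pseudocount of 0.1. For Egr1, 3 and 3 remained. Depth limits Nr4a3 most. For the changes given here without a reason, the cause was not tested.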
